A study of Homo sapiens with 4 samples.

Results

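Gene expression in HCT116 cells carrying the KSR1 hairpin labelled shRNA #2 was compared with that in HCT116 cells carrying the non-targeting hairpin shCONTROL. Each group was 1 array, and the comparison took in every probe set that the array annotation assigns to exactly 1 gene symbol, which was 41097 of 54675. These probe sets named 19775 genes. Each gene was represented by its probe set with the highest mean signal, and the 12468 genes whose mean over all 4 arrays of the series reached the median of all probe sets, an intensity of 51.7, were analysed. A difference is hairpin #2 minus shCONTROL on the scale log2(intensity + 16), so 1 unit is a 2-fold difference and differences of dim genes are understated. The remaining arrays, 1 of untransfected HCT116 cells and 1 of cells with a different KSR1 hairpin, shRNA #1, are given beside them.

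HCT116 is an established human line from a colorectal carcinoma. KSR1 is a scaffold protein that brings RAF, MEK and ERK together, so that a signal is passed along the kinase cascade. Active ERK switches on a set of target genes, several of which encode its own inhibitors, such as the dual-specificity phosphatases and the Sprouty proteins. A short hairpin RNA is processed into a small interfering RNA that directs degradation of the matching transcript.

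Per the labels, the hairpin vectors were introduced by lipofection and the transfected cells were selected as clones in puromycin, which untransfected cells did not undergo. The sources used here do not say whether an array held RNA of 1 clone or of several. The labels speak of single biological replicates, so no difference below has a replicate check and no p-value is given. A difference between clones and a difference between hairpins cannot be told apart here. The distance between shCONTROL and untransfected cells serves throughout as the measure of how far arrays differ without a KSR1 hairpin.

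The arrays were alike in overall signal, with median intensities between 50.7 and 52.0. Actin signal from the 3′ end of the transcript exceeded that from the 5′ end by a ratio of 2.22 with hairpin #2 and 2.09 in shCONTROL, and the GAPDH ratios, also read as a measure of RNA integrity, were 1.19 and 1.17. The geometric mean of the spiked hybridization controls was 1741 with hairpin #2, above the 1317 to 1449 of the other arrays. Of 15 colorectal epithelial markers, 13 reached 51.7 in every array, with summed intensities of 41446 in shCONTROL and 49282 with hairpin #2. EPCAM, an epithelial adhesion protein, lay between 7855 and 8119. Leukocyte markers reached that value in 1 or 2 of 11 cases an array, endothelial markers in 4 or 5 of 10, and fibroblast markers in 3 to 5 of 14. The last were dominated by S100A4, a calcium-binding protein also made by carcinoma cells, at 7393 in shCONTROL and 6937 with hairpin #2. Of 9 analysed genes on the Y chromosome, 5 were at least 2-fold higher with hairpin #2 than in each of the other arrays. In 3 of these 5, untransfected cells were also at least 2-fold above shCONTROL. These genes are included in the counts below and are not described one by one. Whether the cells of the 4 arrays differed in the Y chromosome was not tested.

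The hairpin's own target showed a small difference on its bright probe set. KSR1 signal there was 209 in untransfected cells, 211 in shCONTROL, 141 with hairpin #1 and 171 with hairpin #2. Hairpin #2 was therefore 18.9% below shCONTROL, a log2 difference of -0.28, while shCONTROL and untransfected cells differed by 0.01. Over all genes, shCONTROL and untransfected cells differed with an SD of 0.28. Its remaining 3 probe sets gave dim signals and differences of 0.02, -0.03 and 0.03. KSR2, the paralogous scaffold, had 370 in untransfected cells, 226 in shCONTROL, 374 with hairpin #1 and 224 with hairpin #2. Protein level was not measured, and the sources used here do not give where the hairpin's target lies relative to the probe sets.

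Among the 12468 genes, 122 (0.979%) were at least 2-fold higher with hairpin #2 than in shCONTROL and 115 (0.922%) were at least 2-fold lower. Counting either direction, 237 genes passed this size rule between hairpin #2 and shCONTROL. Counted the same way, it took 106 genes (0.85%) between shCONTROL and untransfected cells, and 68 (0.545%) between hairpin #1 and shCONTROL. Hairpin #2 thus stood farther from shCONTROL than hairpin #1 did by this count. Most genes differed little, with a median difference of 0.01, a median absolute difference of 0.15 and an SD of 0.37. The higher genes were more often dim ones, 47 among the 3117 genes of lowest mean signal and 11 among the 3117 of highest, whereas the lower genes numbered 23 and 27 there. Counted by probe set, 233 of 41097 (0.567%) were higher and 211 (0.513%) lower by the same rule. Of the 122 higher genes, 43 had other bright probe sets, and 61 of those 66 probe sets lay in the same direction, 36 of them by 2-fold or more. Of the 115 lower genes, 60 had others, with 116 of 119 in the same direction and 63 by 2-fold or more.

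**Figure D1:**
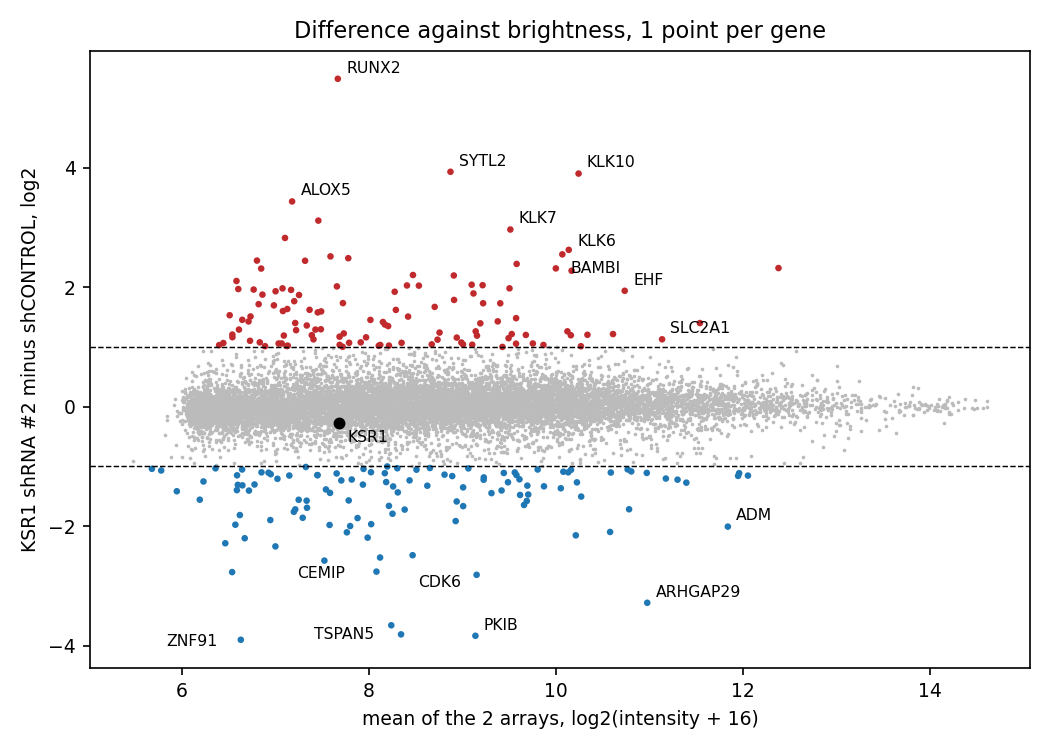
Difference between the hairpin #2 and shCONTROL arrays in log2 units for each analysed gene not on the Y chromosome (vertical axis) against the mean of both arrays as log2(intensity + 16) (horizontal axis), 1 point a gene, with dashed lines at the 2-fold limits. Most points lie near 0, and genes past the limits occur over the whole range of signal, with KSR1 at -0.28.

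The other arrays were then set beside these differences. Both sets of genes were chosen by the hairpin #2 value, so its being the highest or lowest array follows in part from that choice. Of the 122 higher genes, 65 (0.521% of all genes) had hairpin #2 at least 2-fold above each of the other 3 arrays. It was the highest array in 116 of the 122, and in 3749 of all 12468 genes. Of the 115 lower genes, 35 (0.281%) had hairpin #2 at least 2-fold below each other array. It was the lowest array in 105 of the 115, and in 3134 of all 12468 genes. Against untransfected cells, 117 of the 122 were higher, 77 of them by 2-fold or more, as were 1.29% of all genes. Of the 115, 108 were lower, 53 of them by 2-fold or more, as were 0.987% of all genes. By any amount, 6785 of all 12468 genes were higher than in untransfected cells and 5663 were lower. Hairpin #2 was not 2-fold above hairpin #1 in 38 of the 122, and not 2-fold below it in 59 of the 115. Genes were also sorted by which arrays stood at least 2-fold apart: hairpin #2, shCONTROL, both hairpins, or hairpin #2 with untransfected cells. None of these patterns held for 44 of the 122 and 61 of the 115. Both hairpins lay at least 2-fold from both other arrays for 3 higher genes, EHF, MECOM and PRKAA2 (0.0241%), and for 4 lower ones (0.0321%), ALDOC, ANKRD37, ARRDC4 and NDRG1. In 12 lower genes shCONTROL was at least 2-fold above all 3 other arrays, and in 2 higher ones, GPAT3 and MNS1, it was that far below them (0.016%).

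The highest differences included a block of neighbouring kallikrein genes. Kallikreins are secreted serine proteases that, in skin, cut the junctions between surface cells, and their genes lie side by side on chromosome 19. KLK10 had an intensity of 168 in untransfected cells, 297 in shCONTROL, 457 with hairpin #1 and 4672 with hairpin #2, a log2 difference of 3.90. KLK7 had 255, 245, 398 and 2027 in the same order, a difference of 2.97. KLK6 had 252, 437, 804 and 2783, a difference of 2.63. For all 3 genes the hairpin #2 array stood far above the rest, and hairpin #1 was the next highest.

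Other kallikreins of the block lay in the same direction. KLK8, an epidermal and neural protease, had 385, 389, 437 and 1076 (1.43). KLK11 had 34.4, 33.0, 32.0 and 176, and KLK5, which activates other kallikreins in skin, had 40.1, 45.1, 50.5 and 125. For a gene with 1 of both arrays under the filter intensity of 51.7, the fold is given as a lower bound, with the dimmer array set to that value. By this measure KLK11 was at least 2.84-fold and KLK5 at least 2.09-fold higher. Ordered by position, these 6 genes formed the longest unbroken run of analysed genes past 2-fold in 1 direction, among 10 runs with 24 genes in all. The other runs held 2 genes each. KLK1, KLK3, KLK4, KLK12 and KLK14, measured from the same cluster, did not pass 2-fold, so the difference covered part of the cluster.

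**Figure D2:**
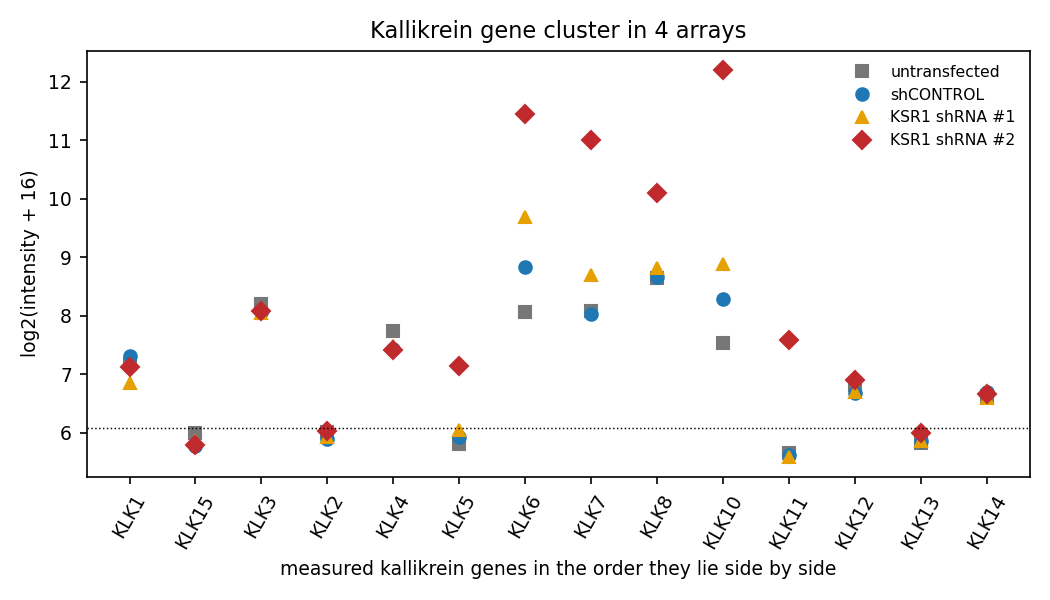
Signal of the measured kallikrein genes in the 4 arrays, as log2(intensity + 16) (vertical axis), with the genes placed in their order along the chromosome (horizontal axis) and the filter value as a dotted line. From KLK5 to KLK11 the hairpin #2 array (diamonds) lies above the other 3, whereas in the genes on either side the 4 arrays lie close together.

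The gene lists here and below were chosen with earlier results of these data known, so their counts are descriptions only. A list of kallikreins, other serine proteases and their inhibitors had 22 analysed members. Of these, 7 were at least 2-fold higher, against 0.979% of all genes, and 2 at least 2-fold lower, against 0.922%. The median was 0.24 against 0.01 over all genes. The seventh higher member was SLPI, a secreted inhibitor of neutrophil elastase and related proteases. It had 84.5 in untransfected cells, 64.4 in shCONTROL, 63.5 with hairpin #1 and 444 with hairpin #2 (2.52). The lower members were both plasminogen activators, PLAU and PLAT, and PLAT was among the genes high in shCONTROL alone. The proteases as a class were therefore divided, and the higher members were those of the kallikrein run and SLPI.

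Keratins and other epithelial genes also lay among the higher ones. Keratins form the intermediate filaments of epithelial cells, and different members mark different epithelia. KRT7, a keratin of simple ductal epithelia, had 554, 272, 282 and 1056 in untransfected, shCONTROL, hairpin #1 and hairpin #2 cells (1.90). KRT20, a marker of differentiated intestinal epithelium, had 166, 63.7, 52.5 and 275 (1.87), and KRT23 had 247, 468, 203 and 1109 (1.22). KRT80 had 50.5, 44.4, 39.3 and 150, at least 2.45-fold higher. On the log2 scale, untransfected cells were nearer to hairpin #2 than to shCONTROL for KRT20, and slightly so for KRT7. These differences thus lay partly in the shCONTROL array.

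In the list of keratins and epithelial junction genes, 20 of 24 were higher than in shCONTROL by any amount, as were 51.5% of all genes. Of the 24, 4 were at least 2-fold higher, against 0.979% of all genes. The list median was 0.21, and hairpin #2 was the highest array for 19 members, against 3749 of all 12468 genes. Desmocollin DSC2, a desmosome cadherin, had 979 in shCONTROL and 1699 with hairpin #2 (0.79). The tight junction claudin CLDN3 lay the other way, at 343 and 197 (-0.75). Outside the list, LY6D, a surface protein of stratified epithelia, was at 31.7 in shCONTROL and 244 with hairpin #2 (at least 3.85-fold). S100P, a calcium-binding protein, was at 49.5 and 234 (at least 3.70-fold). The desmocollin DSC3, also outside the list, lay the other way, with hairpin #2 at least 2-fold below each other array.

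SYTL2, a RAB27-binding protein of vesicle transport, had the largest difference of any gene with both arrays above the filter value. Its intensities were 161 in untransfected cells, 104 in shCONTROL, 100 with hairpin #1 and 1816 with hairpin #2, a log2 difference of 3.93. NMU, the precursor of the neuropeptide neuromedin U, had 3738, 2372, 2637 and 11921 (2.32). FGFBP1, which releases fibroblast growth factors from the matrix, had 149, 149, 208 and 746 (2.21). All 3 had hairpin #2 at least 2-fold above each other array.

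Several transcription factors were higher. RUNX2, the osteoblast-determining RUNX factor, had 55.4 in untransfected cells, 14.3 in shCONTROL, 10.8 with hairpin #1 and 1346 with hairpin #2, at least 20.1-fold above shCONTROL. This value rests on 1 of 6 RUNX2 probe sets: the other 5 stayed at or below 54.2 in every array and differed by 0.04 to 0.17. TBX3, a T-box factor, had 220, 152, 145 and 670 (2.03). KLF5, a Krüppel-like factor of the intestinal crypt, had 467, 254, 367 and 1097 (2.04). EHF, an epithelial ETS factor, was graded, with 470, 855, 2080 and 3328 (1.94).

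PPARG, the nuclear receptor of fat and colon epithelium, showed another pattern. It had 1004 in untransfected cells, 278 in shCONTROL, 314 with hairpin #1 and 1188 with hairpin #2 (2.03), so that hairpin #2 resembled untransfected cells. ANXA10, a gastric annexin, had 4170, 208, 66.3 and 1013 (2.20), and RGS2, which restrains Gq signalling, had 1311, 443, 446 and 2268 (2.32). In all, 12 of the 122 higher genes (0.0962% of all genes) had both the hairpin #2 and untransfected arrays at least 2-fold above both others. Of these 12, RUNX2 and 3 genes on the Y chromosome were also at least 2-fold higher with hairpin #2 than in untransfected cells.

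Enzymes of lipid mediators and of cysteine synthesis were among the highest. ALOX5, the 5-lipoxygenase that starts leukotriene synthesis, had 50.4, 28.0, 21.9 and 460 in untransfected, shCONTROL, hairpin #1 and hairpin #2 cells, at least 7.04-fold higher. PTGES, prostaglandin E synthase, had 160, 168, 168 and 732 (2.03). They were the only members past 2-fold of 11 analysed in the prostaglandin and leukotriene list, whose median was 0.04. Over all genes, 0.979% were at least 2-fold higher. CTH, the cystathionine gamma-lyase that makes cysteine, had 384, 318, 322 and 1737 (2.39). In the list of ATF4 targets and amino acid genes, CTH was the 1 member of 29 past 2-fold upward, DDIT4 the 1 downward, and the median was 0.11. Of all genes, 0.922% were past 2-fold downward.

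BAMBI, a decoy receptor that blunts TGF-beta and BMP signalling and is itself a Wnt target, had 263, 428, 143 and 2585 (2.55). Hairpin #1 was the lowest of the 4 arrays for this gene and hairpin #2 the highest. In the Wnt target list, with 15 analysed, 2 were at least 2-fold higher, against 0.979% of all genes, and 3 lower, against 0.922%. AXIN2, a negative regulator of the pathway, was the other higher one, at 344 in shCONTROL and 933 with hairpin #2 (1.40). RNF43, a ubiquitin ligase that removes Wnt receptors, lay on the other side, at 362, 929, 620 and 235 (-1.92), with the adhesion receptor CD44 (-1.11) and the crypt factor SOX9 (-1.05). The median was -0.02, so that the Wnt targets did not share a direction. In the TGF-beta and BMP list, 1 of 21, BAMBI, passed 2-fold.

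**Figure D3:**
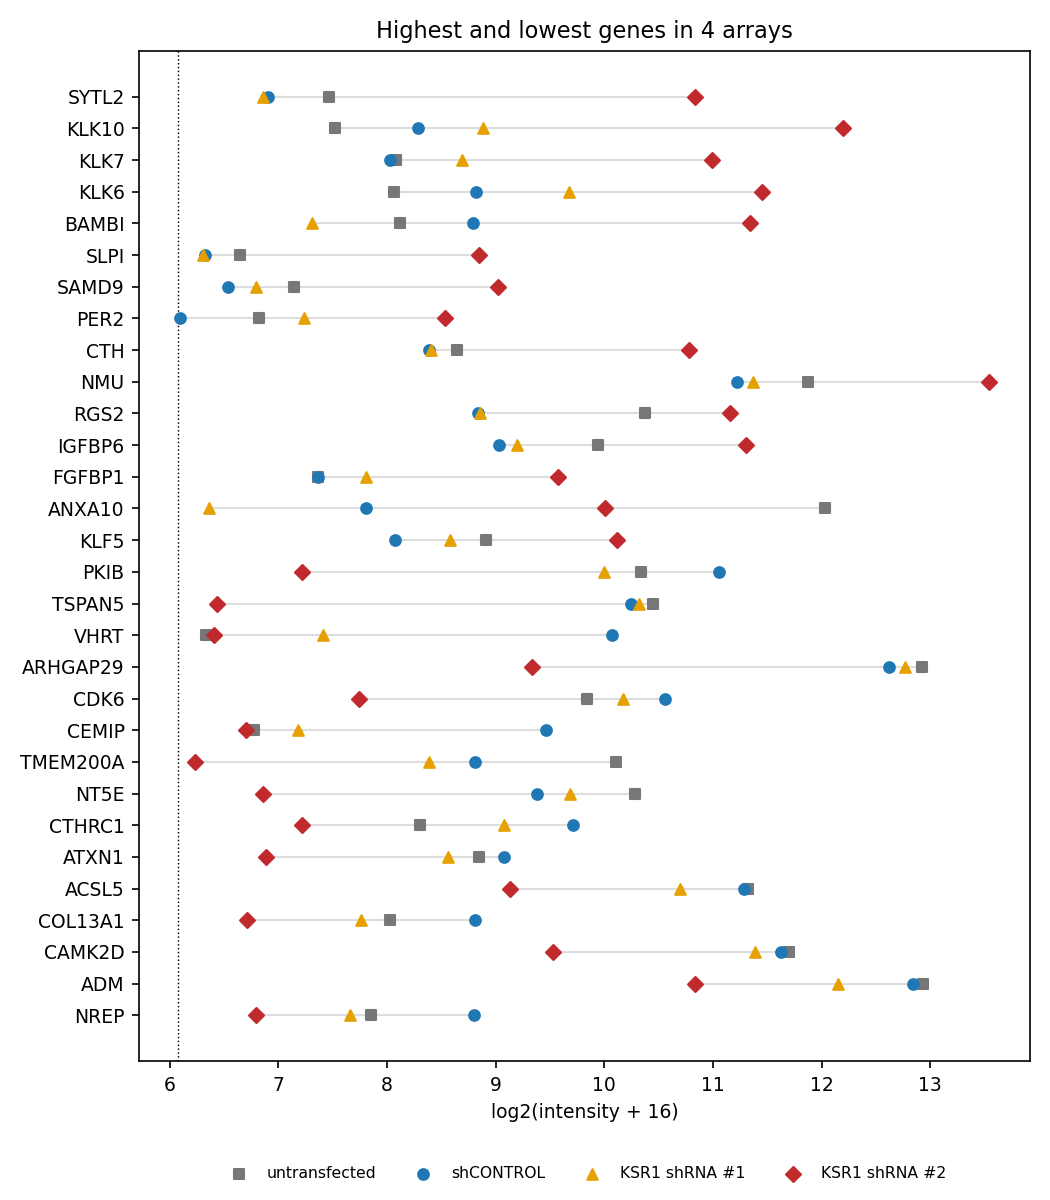
Signal in each of the 4 arrays, as log2(intensity + 16), for genes with the largest differences between hairpin #2 and shCONTROL, 1 marker an array, with the filter value as a dotted line. For SYTL2, KLK10 and TSPAN5 the hairpin #2 array stands apart from the other 3, and for VHRT and CEMIP the shCONTROL array does.

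Of 22 interferon response genes analysed, 5 were at least 2-fold higher with hairpin #2, against 0.979% of all genes. By any amount 16 were higher, against 51.5% of all genes. Interferons bind surface receptors, the signal is carried to the nucleus, and a factor complex that includes IRF9 binds an interferon-stimulated response element in the promoters of antiviral genes. The promoters of 4 of the 5 interferon genes past 2-fold are shown because they hold the core of this element, the letters GAAA, any 2 bases and GAAA again on either strand, printed in capitals. Each run is the 250 bases before the RefSeq transcription start on GRCh38.p14, written 5′ to 3′ on the gene's strand.
IFIT1 (chr10:89392373-89392622, plus strand): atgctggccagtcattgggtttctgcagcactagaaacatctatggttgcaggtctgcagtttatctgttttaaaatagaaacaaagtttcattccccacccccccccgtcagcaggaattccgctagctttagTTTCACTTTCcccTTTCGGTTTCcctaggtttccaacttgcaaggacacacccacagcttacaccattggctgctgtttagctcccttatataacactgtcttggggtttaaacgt
IFI27 (chr14:94110486-94110735, plus strand): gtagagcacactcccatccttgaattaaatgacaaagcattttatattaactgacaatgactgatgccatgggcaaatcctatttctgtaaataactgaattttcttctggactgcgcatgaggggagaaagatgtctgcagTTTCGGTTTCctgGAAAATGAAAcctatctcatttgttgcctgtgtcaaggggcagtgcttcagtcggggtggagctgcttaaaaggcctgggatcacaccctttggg
IFI6 (chr1:27672193-27672442, minus strand): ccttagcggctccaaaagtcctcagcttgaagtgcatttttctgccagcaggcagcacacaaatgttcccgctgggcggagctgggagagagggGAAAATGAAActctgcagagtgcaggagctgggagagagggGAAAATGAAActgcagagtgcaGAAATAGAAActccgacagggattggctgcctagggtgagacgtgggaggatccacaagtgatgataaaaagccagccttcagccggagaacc
SAMD9 (chr7:93117980-93118229, minus strand): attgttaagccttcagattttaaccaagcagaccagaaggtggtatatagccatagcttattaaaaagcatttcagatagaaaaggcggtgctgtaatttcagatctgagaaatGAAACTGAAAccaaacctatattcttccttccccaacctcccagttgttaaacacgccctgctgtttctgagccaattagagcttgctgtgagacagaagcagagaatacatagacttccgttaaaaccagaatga

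Effectors of the response are given first. IFI27, an interferon-induced mitochondrial protein, had 45.7 in untransfected cells, 35.6 in shCONTROL, 34.3 with hairpin #1 and 350 with hairpin #2, at least 5.40-fold higher. SAMD9, an antiviral factor, had 126, 76.7, 95.1 and 504 (2.49). IFIT1, which binds foreign RNA caps, had 40.0, 39.1, 60.1 and 199, at least 3.17-fold higher. IFI6, an inhibitor of viral replication at the endoplasmic reticulum, had 141, 123, 147 and 309 (1.23). In each of these 4 the hairpin #2 array was the highest, and the other 3 lay together below it.

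A sensor and signalling genes lay in the same direction. IFIH1, the cytosolic sensor of double-stranded RNA called MDA5, had 84.0, 79.6, 98.2 and 216 (1.28). IRF9, the DNA-binding subunit of the interferon complex, had 221, 289, 209 and 555 (0.91), and the ubiquitin ligase HERC6 had 124, 110, 116 and 219 (0.90). Of the 22 genes analysed, 16 were higher than in shCONTROL by any amount, against 51.5% of all genes, and 6 were lower. By at least 2-fold, 5 were higher, against 0.979% of all genes, and 0 were lower. The list median was 0.50 against shCONTROL, or 0.26 with a filter at the 75th percentile, and 0.44 against untransfected cells. With hairpin #1 it was -0.06 against shCONTROL. Hairpin #2 was the highest array for 15 of the 22, against 3749 of all 12468 genes. MHC class I and antigen processing genes, another interferon-responsive group, had a median of 0.16, with 0 of 12 past 2-fold.

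The element's core, searched on both strands with overlapping matches merged, was present in the 250 bases of all 5 genes past 2-fold, IFIH1 included. It was present in 12 of the 19 list members with a promoter in the table (63.2%), and in 2.12% of 10100 promoters of analysed genes. The 3 matches of IFI6 begin 156, 115 and 93 bases before the start, and those of IFIT1 at 116 and 103. A match is a description of the letters and was not tested for binding.

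TSPAN5, a tetraspanin that escorts the protease ADAM10 to the surface, had 1379 in untransfected cells, 1201 in shCONTROL, 1262 with hairpin #1 and 70.6 with hairpin #2, a log2 difference of -3.81 and one of the lowest of all. Its other bright probe sets gave -3.70 and -3.07. Of 19 tetraspanins analysed, it was the 1 member past 2-fold downward, TSPAN1 the 1 upward (1.02), and 9 were higher and 10 lower by any amount. The shares of all genes were 0.922% past 2-fold downward, 0.979% upward, and 51.5% higher and 48.4% lower by any amount. PKIB, an inhibitor of cAMP-dependent protein kinase, had 1283, 2114, 1008 and 133 (-3.84). ARHGAP29, a GTPase-activating protein for RhoA, had 7772, 6275, 6943 and 630 (-3.28). In these 3 genes the hairpin #2 array lay far below the other arrays.

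Further genes had the same shape. CDK6, a cyclin D-dependent kinase of the G1 phase, had 899, 1493, 1138 and 198 (-2.81). NT5E, the surface enzyme CD73 that makes adenosine from AMP, had 1227, 651, 809 and 99.9 (-2.53). ACSL5, which activates fatty acids in the intestine, had 2549, 2488, 1645 and 547 (-2.15), and CAMK2D, a calcium-dependent kinase, had 3320, 3151, 2666 and 724 (-2.10). ZNF91, a zinc finger repressor of retrotransposons, had 185, 367, 240 and 9.58, at least 5.65-fold lower. The orphan nuclear receptor NR2F1 had 687, 433, 401 and 107 (-1.86), and its antisense neighbour NR2F1-AS1 was also past 2-fold. The array values do not tell whether the antisense signal is separate.

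In a different group the shCONTROL array stood apart. CEMIP, a hyaluronan-degrading protein of colorectal tumours, had 93.5 in untransfected cells, 689 in shCONTROL, 129 with hairpin #1 and 87.9 with hairpin #2 (-2.76). The non-coding RNA VHRT had 64.9, 1058, 154 and 68.9 (-3.66), and TAGLN, the actin-binding protein SM22, had 118, 282, 82.8 and 66.2 (-1.86). They belong to the 12 genes (0.0962%) in which shCONTROL was at least 2-fold above every other array, with CD24, IGFBP3, ITGB8, KIAA0040, LINC00326, MAMDC2, PDGFC, PLAT and SLC2A3. Relative to untransfected cells, hairpin #2 differed by 0.07 for VHRT, -0.71 for TAGLN and -0.95 for SLC2A3. Another TAGLN probe set above the filter showed no such pattern. It had 94.7 in untransfected cells, 94.0 in shCONTROL, 86.0 with hairpin #1 and 94.4 with hairpin #2 (0.01).

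Genes downstream of ERK were examined as the pathway in which KSR1 acts. Of 28 analysed, 20 (71.4%) were lower than in shCONTROL by any amount, against 48.4% of all genes, with a median of -0.25. By at least 2-fold, 5 were lower, against 0.922% of all genes, and 0 were higher, against 0.979%. Among feedback inhibitors, SPRY4 had 707 in untransfected cells, 1175 in shCONTROL, 1050 with hairpin #1 and 497 with hairpin #2 (-1.22), and SPRY1 had 199, 181, 121 and 69.4 (-1.21). DUSP6, the phosphatase specific for ERK, had 1772, 5805, 3003 and 3253 (-0.83). For DUSP6 the high array was shCONTROL, and hairpin #2 was above untransfected cells.

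Among transcription factors of the ERK list, EGR3, an immediate early factor, had 101, 109, 84.5 and 26.5. It counts as past 2-fold by its measured difference of -1.56, but since hairpin #2 was under the filter intensity its bound is at least 1.85-fold lower. ETV1, an ETS factor, had 336, 153, 177 and 62.8 (-1.10), and HMGA2, an architectural chromatin protein, had 2631, 2935, 2554 and 1353 (-1.11). Their other bright probe sets gave smaller differences, -0.27 and -0.17 for ETV1 and -0.12 to -0.79 for HMGA2. When probe sets were averaged, ETV1, SPRY1 and HMGA2 were no longer past 2-fold. The same held for EGR3, SPRY1 and ETV1 with a pseudocount of 64. Compared with untransfected cells instead, the ERK list divided evenly, 14 lower and 14 higher, with a median of 0.01. With hairpin #1 the median against shCONTROL was -0.01. The kinases and scaffolds themselves differed little: of 17 analysed in the RAF, MEK and ERK list, 0 passed 2-fold, and the median was -0.03.

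Hypoxia-inducible genes were lower with hairpin #2 almost throughout the list. When oxygen is low, the factor HIF accumulates and binds short elements with the core ACGTG in promoters of genes for glucose uptake, glycolysis and vessel growth. The promoters of ANKRD37, INSIG2 and the glycolytic gene ALDOC, 3 genes past 2-fold, are shown with each ACGTG on either strand in capitals, over the same 250 bases before the start.
ANKRD37 (chr4:185396591-185396840, plus strand): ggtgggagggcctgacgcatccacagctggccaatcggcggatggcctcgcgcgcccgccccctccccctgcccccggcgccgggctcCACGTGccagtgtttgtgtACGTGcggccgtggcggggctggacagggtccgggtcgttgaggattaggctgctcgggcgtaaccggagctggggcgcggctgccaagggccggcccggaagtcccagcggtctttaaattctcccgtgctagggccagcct
INSIG2 (chr2:118088221-118088470, plus strand): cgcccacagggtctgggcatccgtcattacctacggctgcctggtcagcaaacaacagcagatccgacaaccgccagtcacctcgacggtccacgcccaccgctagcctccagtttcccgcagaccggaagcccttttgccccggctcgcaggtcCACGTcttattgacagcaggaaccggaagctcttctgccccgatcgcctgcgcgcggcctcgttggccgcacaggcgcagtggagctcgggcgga
ALDOC (chr17:28576896-28577145, minus strand): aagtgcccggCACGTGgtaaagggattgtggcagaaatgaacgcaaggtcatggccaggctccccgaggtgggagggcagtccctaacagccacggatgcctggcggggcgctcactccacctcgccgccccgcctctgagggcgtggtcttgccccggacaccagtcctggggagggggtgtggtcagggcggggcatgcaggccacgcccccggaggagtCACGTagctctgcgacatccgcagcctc

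Of 23 hypoxia-inducible genes analysed, 22 (95.7%) were lower than in shCONTROL, against 48.4% of all genes, and 6 were at least 2-fold lower, against 0.922%, with a median of -0.70. ADM, the vessel-dilating peptide adrenomedullin, had 7819 in untransfected cells, 7337 in shCONTROL, 4537 with hairpin #1 and 1813 with hairpin #2 (-2.01). NDRG1, a stress-responsive growth suppressor, had 5778, 3496, 1543 and 1510 (-1.20). INSIG2, which retains the sterol sensor in the endoplasmic reticulum, had 1183, 1006, 566 and 458 (-1.11). Both hairpin arrays lay below both others for these 3 genes. Also past 2-fold were DDIT4, an inhibitor of mTORC1 (-1.15), ANGPTL4, an inhibitor of lipoprotein lipase (-1.10), and ANKRD37, an ankyrin-repeat protein (-1.06).

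The list stood lower in more than 1 comparison. Against untransfected cells the median was -0.65, with 22 of 23 lower, and between shCONTROL and untransfected cells it was -0.10. With hairpin #1, which was compared with the same shCONTROL array, the median was -0.63. Hairpin #2 was the lowest array for 14 members and the highest for 0, against 3134 and 3749 of all 12468 genes. Between the hairpins the median was -0.04, so that ADM, more than 1 log2 unit lower with hairpin #2 than with hairpin #1, was not typical of the list.

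Glycolysis and glucose genes overlapped with this picture. Of 26 analysed, 23 (88.5%) were lower than in shCONTROL, against 48.4% of all genes, and 6 by at least 2-fold, against 0.922%, with a median of -0.30. With hairpin #1 the median against shCONTROL was -0.37, and between the hairpins it was -0.005. ENO2, the neuronal enolase, had 992, 1294, 666 and 454 (-1.48), and PDK1, the kinase that shuts pyruvate out of the mitochondrion, had 1022, 1097, 725 and 405 (-1.40). ALDOC, aldolase C, had 1785, 1689, 646 and 646 (-1.37), and PFKFB4, which sets the level of a glycolytic activator, had 1293, 1472, 819 and 575 (-1.33). ARRDC4, an arrestin-domain gene controlled by glucose, had 416, 505, 110 and 177 (-1.43). The glucose transporters split. SLC2A3 had 93.8, 272, 43.0 and 40.8, at least 4.25-fold lower, whereas SLC2A1 had 1081, 1506, 750 and 3313, which is higher by 1.13. SLC2A1 was thus lowest with hairpin #1 and highest with hairpin #2.

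The core ACGTG was present in 11 of 18 hypoxia-inducible genes with a promoter in the table (61.1%), and in 4 of the 5 that were at least 2-fold lower. It was present in 11 of 25 glycolysis genes (44.0%) and in 23.1% of promoters of analysed genes. In ANKRD37 the matches begin 162 and 143 bases before the start, and in ALDOC 240 and 28. A core of 5 bases occurs often in any sequence, and no binding was measured.

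**Figure D4:**
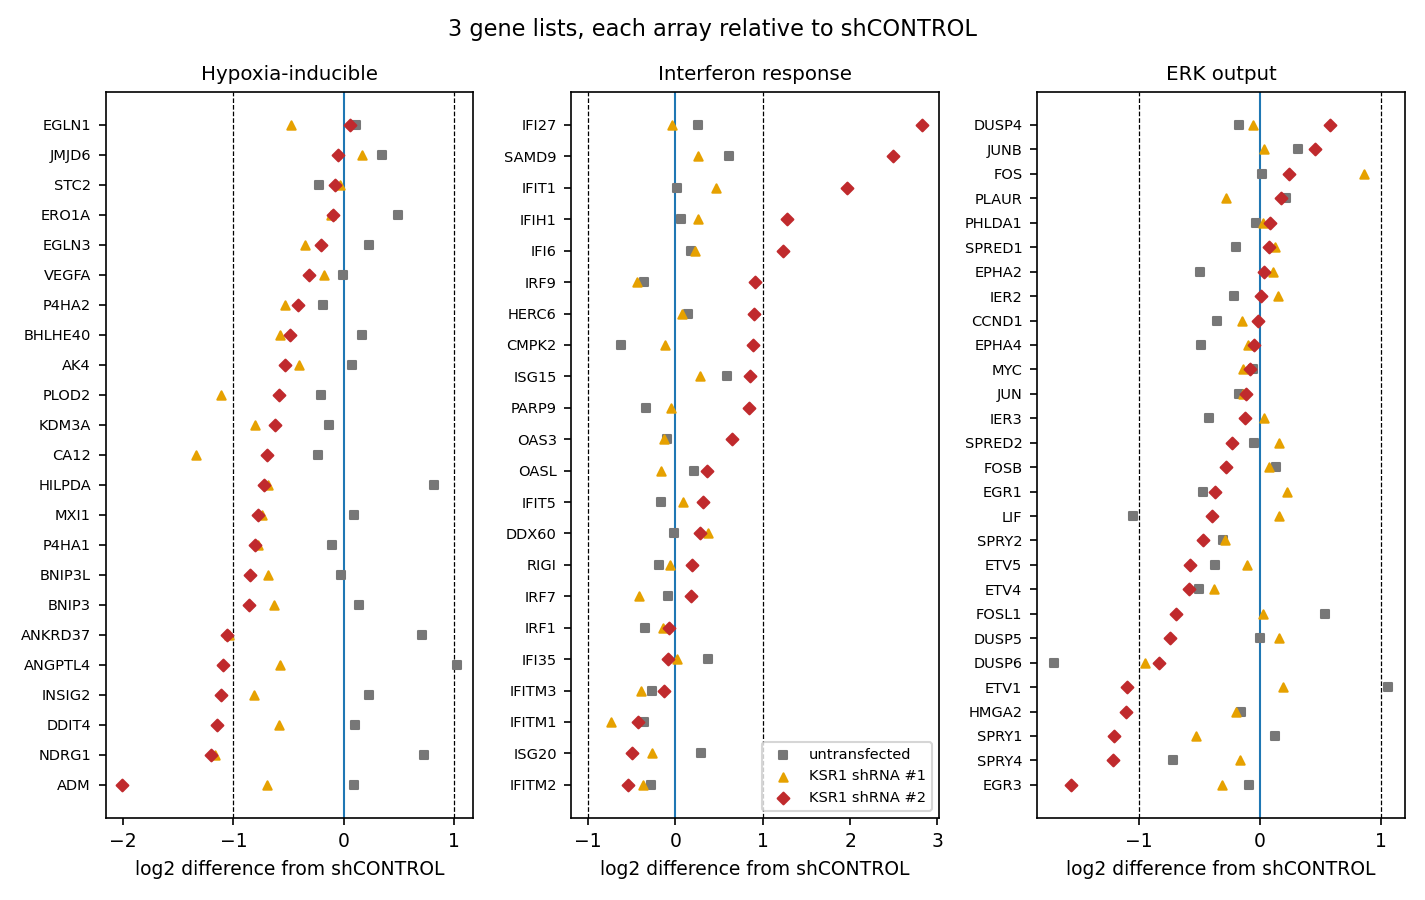
Difference from shCONTROL in log2 units for each analysed member of the interferon response, ERK output and hypoxia-inducible lists, 1 gene a row, with squares for untransfected cells, triangles for hairpin #1, diamonds for hairpin #2 and dashed lines at 2-fold. Interferon genes in the hairpin #2 array have a median of 0.50, with 6 of 22 below 0, whereas hypoxia-inducible genes lie mostly below 0 with both hairpins, with medians of -0.63 and -0.70.

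Neither list of cell cycle genes had a member past 2-fold. CDK6, given above at -2.81, is in neither list. Of 25 genes of G2 and mitosis, 23 (92.0%) were higher than in shCONTROL, against 51.5% of all genes, but 0 reached 2-fold, with a median of 0.34. CCNB1, the mitotic cyclin B1, had 2718, 2328, 3600 and 4573 (0.97), and AURKA, a centrosomal kinase, had 1660, 1197, 1613 and 2330 (0.95). PLK1, another mitotic kinase, had 606, 629, 831 and 1158 (0.86). With hairpin #1 the list median against shCONTROL was 0.28, and shCONTROL itself was -0.14 from untransfected cells. Of 26 genes of G1, S phase and DNA replication, 20 were lower, against 48.4% of all genes, 0 reached 2-fold, and the median was -0.13.

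Among p53 targets, 18 of 23 were lower than in shCONTROL, against 48.4% of all genes, with a median of -0.23. BAX alone passed 2-fold, and it was lower, against 0.922% of all genes. Against untransfected cells the direction turned, with 13 higher and 10 lower and a median of 0.10, and shCONTROL itself was 0.33 above untransfected cells. With hairpin #1 the list median against shCONTROL was -0.26. BAX, the pore-forming inducer of mitochondrial apoptosis, had 207 in untransfected cells, 281 in shCONTROL, 263 with hairpin #1 and 121 with hairpin #2 (-1.12). A further bright BAX probe set gave -1.16. TIGAR, a p53 target that lowers glycolytic flux, lay the other way, at 471 and 766 (0.68). In the list of the BCL2 family and caspases, with 22 analysed, BAX was again the 1 gene past 2-fold, and the median was 0.08.

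The remaining lists had medians between those of the groups described. Sterol and fatty acid synthesis had a median of 0.21 with 0 of 22 past 2-fold, and oxidative phosphorylation 0.05 with 0 of 23. The HOX list had a median of 0.33 over 14 genes, with HOXB3, an anterior HOX factor, past 2-fold at 345, 361, 587 and 846 (1.19). Of all genes, 0.979% were at least 2-fold higher. In the MYC and ribosome biogenesis list 0 of 21 passed 2-fold, as did 0 of 23 receptor kinases and 0 of 13 small RNA processing genes. Of 15 mesenchymal and SRF or YAP target genes, 2 were at least 2-fold lower, against 0.922% of all genes, and the median was -0.16. They were TAGLN, with the probe set limit given above, and the receptor kinase AXL.

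**Figure D5:**
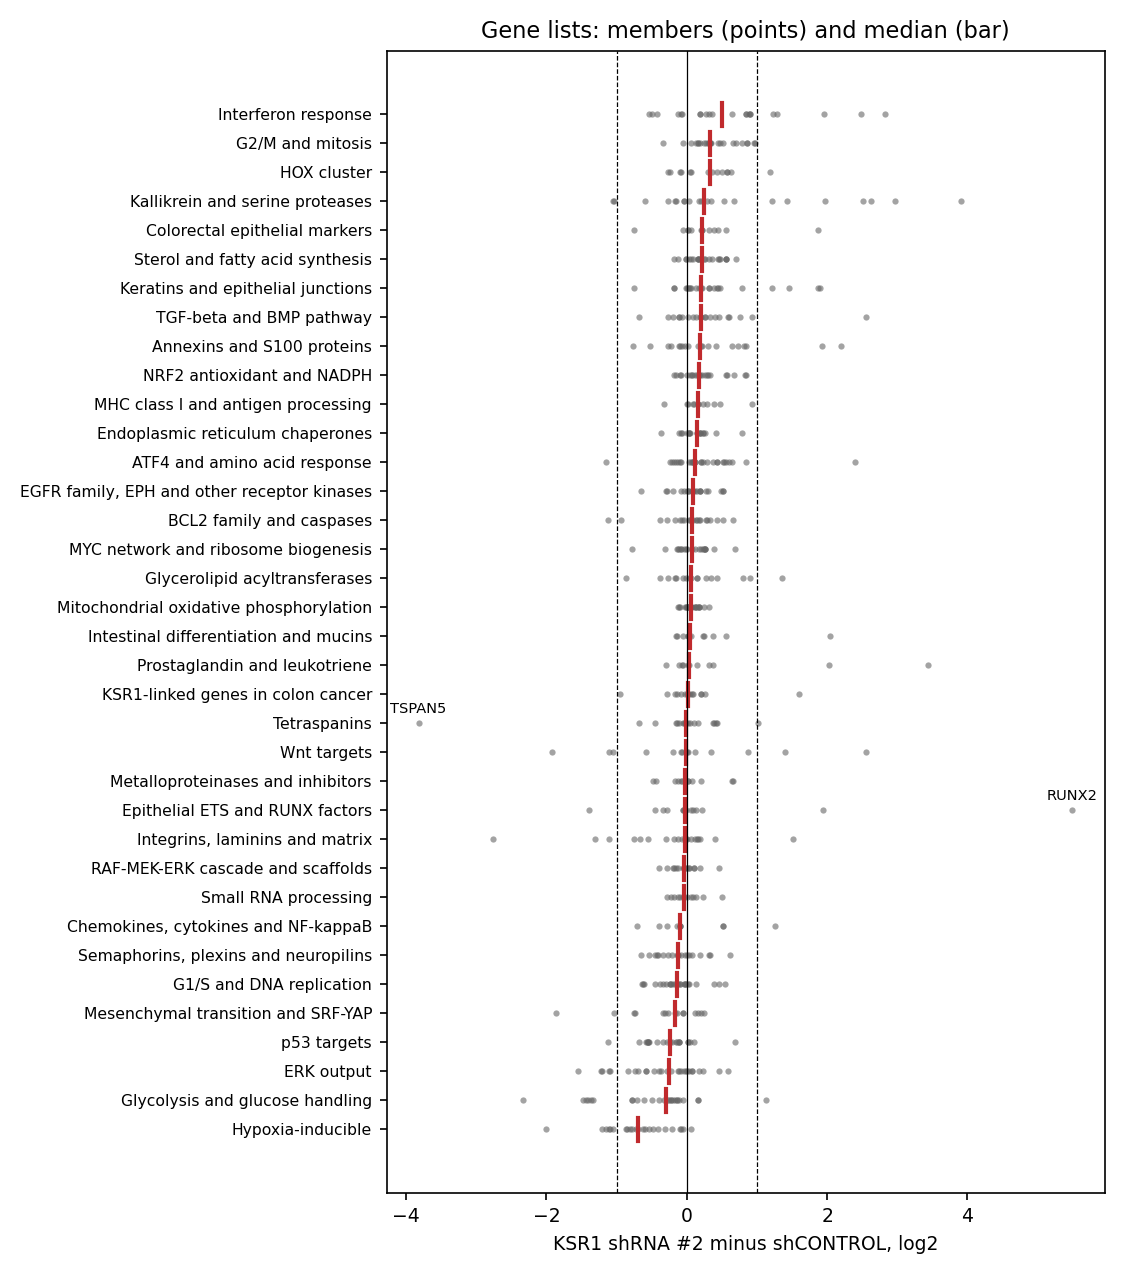
Difference between hairpin #2 and shCONTROL in log2 units for the analysed members of each gene list with at least 10 of them (points), with the list median as a bar and dashed lines at 2-fold. Medians run from -0.70 for hypoxia-inducible genes to 0.50 for the interferon response, and many lists have no member or 1 member past the 2-fold lines.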

How the data were processed

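The authors deposited linear intensity values, 1 per probe set and array, for 4 one-colour Affymetrix arrays. Per the labels, biotinylated cRNA was made from 2.5 micrograms of total RNA, and the sources used here do not give background correction, summary or scaling. No column was left unused. Probe sets were named from the platform annotation: 41097 had 1 symbol, 1801 several and 11777 none, and 41043 matched RefSeq on GRCh38.p14. Values were converted to log2(intensity + 16). No depth applies to arrays, and their number limits the precision. The size rule was 1 log2 unit, and the calculation recovered changed genes in simulated data. There, all probe sets of bright genes were shifted by more than the rule, with noise below the spread between shCONTROL and untransfected cells. Dim genes and differences near 2-fold were not simulated. How often it errs on the 4 arrays themselves was not tested. The members and the gene lists were chosen with earlier results of these data known.

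Named genes were KSR1, the 25 highest and 25 lowest genes with both arrays at or above the filter value, up to 12 a direction with 1 array under it and a bound of at least 1 log2 unit, and up to 6 members of each of 40 lists. Of these, 5 genes on the Y chromosome are counted but not named. Other genes named were chosen after their values were seen, including members given by pattern, position or list. Alternatives covered filters, probe set averaging, quantile normalization, centring and pseudocounts of 1 and 64. Python 3.11.15, pandas 2.3.3 and numpy 2.4.6 were used.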

Additional observations from a re-analysis of the deposited data

How the results depend on the processing

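With 1 array a group, the number of arrays limits every value, and genes near background have only bounds. No paired analysis was possible because each group was 1 array. The counts of 122 higher and 115 lower genes became 58 and 75 with a filter at the 75th percentile, which leaves fewer genes, and the count of lower genes became 68 when each gene's probe sets were averaged. With that average 77 of 94 named genes past 2-fold remained past it (ETV1, SPRY1, HMGA2, ANKRD37, PDK1, PFKFB4, KRT7 and AXIN2 were among those lost), the KSR1 difference was -0.063 and the hypoxia-inducible median -0.47. With a pseudocount of 64, 90 of 105 remained (IFI6, IFIH1, BAX, EGR3, SPRY1, ETV1, ANGPTL4, KRT80, AXL and TSPAN1 were among those lost). The interferon median was 0.26 and the ERK output median -0.12 with the stricter filter. The causes were not tested. No named gene or list median described as higher or lower by 0.2 or more changed sign.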

Other observations

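Genes of the circadian clock, a list put together after the values of PER2 had been seen, were also read out. The clock runs on a loop in which the activators CLOCK and BMAL1 switch on PER and CRY repressors. Of 15 analysed, 4, PER2 included, were at least 2-fold higher with hairpin #2 than in shCONTROL, against 0.979% of all genes, and 1 was at least 2-fold lower, against 0.922%, with a median of 0.16. Since PER2 prompted the list, these counts support nothing. The repressor PER2 had 97.5 in untransfected cells, 52.3 in shCONTROL, 135 with hairpin #1 and 356 with hairpin #2 (2.44). TEF, a clock-controlled factor, had 80.8, 76.8, 106 and 177 (1.06), and CIPC, an inhibitor of CLOCK, had 147, 128, 213 and 279 (1.04). CRY1 had 701, 334, 377 and 721 (1.07), so that hairpin #2 was near untransfected cells. BMAL1 lay the other way, at 352, 558, 432 and 266 (-1.03), while its partner CLOCK had 2527, 1526, 1621 and 2733 (0.83). NFIL3, a repressor of clock output, had 1758, 1588, 997 and 819 (-0.94). The sources used here do not give the time of feeding or of collection of the cells.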
